A study of Homo sapiens with 7 samples.

Results

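Cells given both prelamin A and the protease ZMPSTE24 were compared with control cells of the same human dermal fibroblast strain, gene by gene, to describe what differed from control when prelamin A was supplied together with its processing enzyme. The comparison used 3 of the 7 arrays of the study, 1 of prelamin A and ZMPSTE24 and 2 of control, all from RNA taken at passage 10. Each of the 12722 genes was represented by its brightest probe set, and a gene was called where its log2(signal + 16) differed by over 1 (a 2-fold difference on this scale), in the same direction, from each control array taken alone. By this rule 846 genes were called, of which 508 were higher (3.99% of the genes tested) and 338 were lower (2.66%), and "rose" and "fell" are used below only of these genes. Every count of called genes in a list below is to be read beside these shares. The other 4 arrays were 1 each of prelamin A, prelamin A with a farnesyltransferase inhibitor (FTI), progerin and progerin with FTI, and their values are given beside the comparison where they bear on a gene.

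The methods describe prelamin A in a lentiviral vector with a cytomegalovirus promoter and a puromycin cassette, and sorting of transduced cells by green fluorescent protein (GFP). They do not say which vector made the GFP in these cells. The way ZMPSTE24 was delivered to the array sample is not given in the sources used here. The labels name no treatment for the 2 controls, and whether these cells carried an empty or marker vector is not stated either. The labels give the same cell line for all 7 arrays. The methods state that every virus was put into 2 fibroblast lines with duplicate cultures, but not how these cultures relate to the arrays, so a p-value below measures nothing but how far these arrays spread, and that spread may be technical.

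Lamin A is a filament protein of the nuclear lamina, the meshwork under the inner nuclear membrane. It is made as prelamin A, whose C-terminal end is farnesylated by farnesyltransferase, trimmed by RCE1 or ZMPSTE24, methylated by ICMT and, as the last step, removed with its lipid by ZMPSTE24. Progerin, the protein of Hutchinson-Gilford progeria, lacks the site of that last cut and keeps the lipid, and dermal fibroblasts, the collagen-producing cells of the skin, are the cell type in which its effects have been studied most.

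Signals are from MAS 5.0 and measure brightness on a linear scale in arbitrary units, after scaling of each array to a common level. Differences are on the log2(signal + 16) scale, which understates the change of dim genes. The median signal of the genes tested was 639 on the prelamin A and ZMPSTE24 array, against 648 and 673 on the controls, and the median difference from the control mean over all genes was -0.04. The 2 controls were themselves over 2-fold apart at 1180 genes (9.28%). All 13 dermal fibroblast markers were measured and none was called, with a summed signal of 338445 against 387717 and 354228. The 3' to 5' signal ratio of ACTB, which rises as RNA breaks down, was 1.498 with prelamin A and ZMPSTE24, against 1.244 and 1.057 on the controls, and that of GAPDH was 0.8922, against 0.8794 and 0.9429. The part of the ACTB ratio in the results was not tested.

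**Figure D1:**
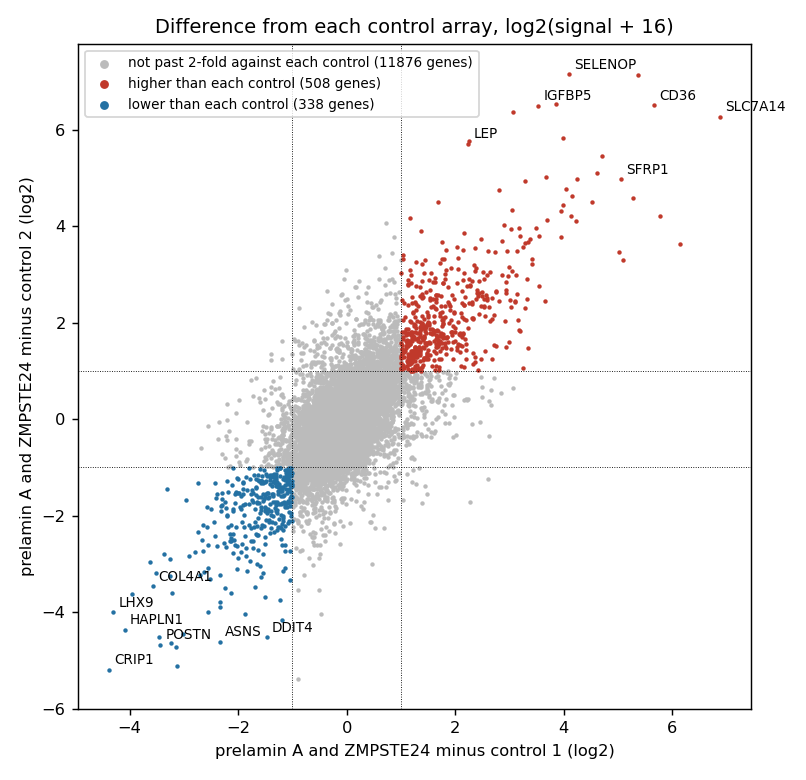
Each point is 1 of the 12722 genes, placed by its log2(signal + 16) on the prelamin A and ZMPSTE24 array minus control 1 (horizontal axis) and minus control 2 (vertical axis), with dotted lines at a 2-fold difference. The 508 genes higher than each control lie in the upper right corner and the 338 lower genes in the lower left.

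Limma, fitted over all 7 arrays in 6 conditions, rests on the 2 controls for its only residual degree of freedom and assumes that the lone array varies as they do. At a fold over 2 and an unadjusted p under 0.05, it placed 608 genes higher (4.78%) and 457 lower (3.59%). After Benjamini-Hochberg adjustment 0 genes passed 0.05, with a smallest adjusted p of 0.140 in limma, while 1236 genes (9.72%) had an unadjusted p under 0.05. This count of 0 depended on the settings, since 55 genes passed with a pseudocount of 64 and 121 with an intensity trend in limma. With the same controls, the array of prelamin A alone had 676 genes higher than each (5.31%) and 402 lower (3.16%). Because both comparisons share their controls, the values of each are given side by side below and no overlap between them is reported.

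The targets of the experiment did not stand out on the array. ZMPSTE24 read 5779 units with prelamin A and ZMPSTE24 and 6120 with prelamin A alone, against 4841 and 4973 on the controls, a log2 difference of 0.24 (SE 0.32). LMNA, which encodes prelamin A and lamin C, read 9488 units with prelamin A and ZMPSTE24, against 9300 and 14029 on the controls, and its next brightest probe set read 6230, against 7496 and 10863. Signals of LMNA on the control arrays thus lay on either side of, or above, the array that received the vector. Whether these probes can read the introduced cDNAs was not checked, and the readings therefore do not test the label.

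Among the 9 genes of the lamin pathway, 2 fell and none rose. LMNB1, a B-type lamin, read 101 units with prelamin A and ZMPSTE24 and 84 with prelamin A alone, against 234 and 279 on the controls (log2 difference -1.22, SE 0.33, limma adjusted p = 0.365). FNTB, the beta subunit of farnesyltransferase, read 34.9 units, against 147 and 104, so its signal on the prelamin A and ZMPSTE24 array was under the 100-unit minimum of the filter. LMNB2, the other B-type lamin gene, was not called, at 394 units against 535 and 612. With a pseudocount of 64 in place of 16 neither LMNB1 nor FNTB was called. The methyltransferase ICMT was at 3514 units, against 2926 and 3262, and the protease RCE1 at 85.6, against 151 and 148, neither of them past 2-fold. None of the 17 nuclear envelope genes was called, beside 6.65% of all genes, a share that leaves few calls to expect among 17. Their differences from the control mean lay between -1.20 and 0.26. EMD, the gene of emerin, showed how the rule on both controls worked, with 195 units against 299 and 643, over 2-fold below control 2 only.

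The largest rises came from genes with little signal in control cells, which the ordering by fold favours. Genes under 100 units on both controls passed the filter only through an array on which they were brighter. Over the 20 genes with the largest rise, ordered by the smaller of their differences from the controls, that difference ran between 3.77 and 6.27 on the log2 scale, and 12 of them had both controls under 100 units. SLC7A14, a gene of the cationic amino acid transporter family on chromosome 3 (170459548 to 170586075, GRCh38.p14), read 2392 units with prelamin A and ZMPSTE24 and 489 with prelamin A alone, against 4.41 and 15.3 on the controls (log2 difference 6.57, SE 0.41, limma adjusted p = 0.140). CD36, the fatty acid and thrombospondin receptor, read 4066 and 2645 units on the arrays with prelamin A, with ZMPSTE24 and without it, against 64.3 and 28.7 on the controls (6.09, SE 0.47). Both genes had their highest signal of all 7 arrays here. TMTC1, a membrane protein of the endoplasmic reticulum, read 2970 units with the protease and 787 without, against 55.9 and 5.36 (6.25, SE 0.78). With progerin, without and with FTI, SLC7A14 read 1636 and 1221 units, CD36 776 and 664 and TMTC1 1761 and 1792.

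SFRP1, a secreted inhibitor of WNT ligands, was the brightest of the 20, with 13372 units with prelamin A and ZMPSTE24 and 11954 with prelamin A alone, against 386 and 410 on the controls, which differed from each other by far less than from either array with prelamin A. DCLK1, a microtubule-associated kinase, read 1262 units, against 32.7 and 13.2, and MAOA, the monoamine oxidase of the outer mitochondrial membrane, read 765, against 18.1 and 18.4. IL13RA2, a decoy receptor for interleukin 13, read 6142 units, against 97.1 and 316. SELENOP, the secreted selenium carrier, read 3683 units, against 201 and 10.0, and RAB27B, a GTPase of secretory granules, 2427 against 152 and 10.5, so that for both genes the fold depends mainly on which control is used. For 13 of the 20 genes the signal was within 2-fold of that with prelamin A alone, 5 had a signal over 2-fold lower with prelamin A alone and 2 had a signal over 2-fold higher. The limma adjusted p over the 20 ran between 0.140 and 0.297 and the SE between 0.32 and 1.29. Other probe sets were present for 12 of these genes, and in 11 at least 1 of them met the same rule.

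**Figure D2:**
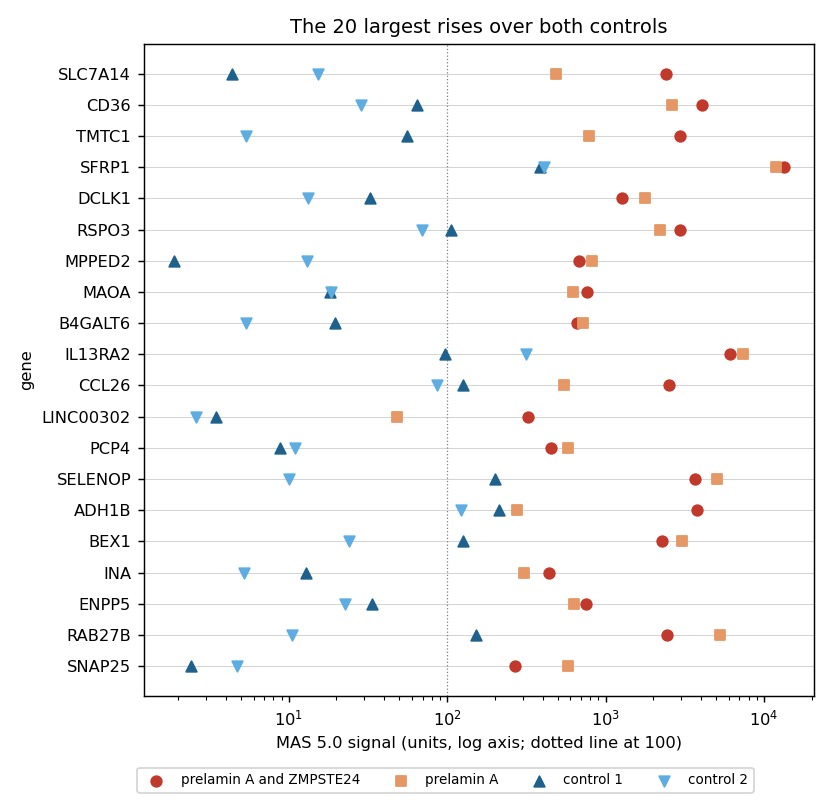
Signal in MAS 5.0 units (horizontal log axis) of the 20 genes with the largest rise, ordered from the top by the smaller difference from the controls, on the prelamin A and ZMPSTE24 array, the prelamin A array and the 2 controls. Every circle lies to the right of both triangles, and for 12 genes both controls lie left of the dotted line at 100 units.

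The 20 largest falls were taken among genes with at least 100 units on both controls, as the rises were among genes with at least 100 units on the prelamin A and ZMPSTE24 array. The smaller difference from the controls ran between 2.71 and 4.38 on the log2 scale. CRIP1, a small LIM domain protein on chromosome 14 (105486886 to 105488947), read 30.2 units with prelamin A and ZMPSTE24 and 120 with prelamin A alone, against 946 and 1677 on the controls (-4.79, SE 0.46, limma adjusted p = 0.140). Its neighbour and paralog CRIP2 (105472945 to 105480170) fell as well, with 40.6 units, against 337 and 359, and both genes had their lowest signal of all 7 arrays here. Probes of the 2 genes were not checked for sequence shared between them.

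HAPLN1, which links hyaluronan to proteoglycans, read 49.0 units with prelamin A and ZMPSTE24, against 1092 and 1324 on the controls. LHX9, a LIM homeobox factor of limb and gonad development, read 606 units with prelamin A and ZMPSTE24 and 300 with prelamin A alone, against 12234 and 9943, and COL11A1, a minor fibrillar collagen, read 1052 units, against 16514 and 13105. LHX9 and COL11A1 were bright in control cells and lower on each of the other 4 arrays as well. MXRA5, a matrix protein, read 1412 units, against 16268 and 13002, and CH25H, the cholesterol 25-hydroxylase, 131 against 1277 and 3875. For 13 of the 20 genes the signal was within 2-fold of that with prelamin A alone, for the other 7 it was over 2-fold lower than there, and 12 had their lowest signal of the 7 arrays with prelamin A and ZMPSTE24. All 12 of those with other probe sets had at least 1 that met the same rule, and the limma adjusted p ran between 0.140 and 0.273.

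**Figure D3:**
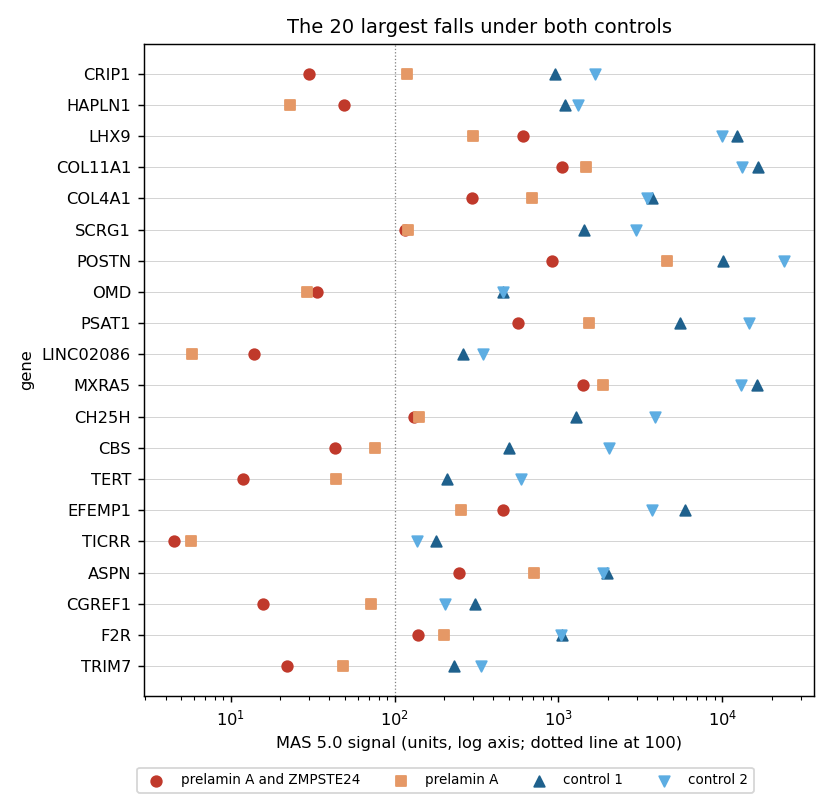
Signal in MAS 5.0 units (horizontal log axis) of the 20 genes with the largest fall, ordered from the top by the smaller difference from the controls, on the prelamin A and ZMPSTE24 array, the prelamin A array and the 2 controls. Every circle lies to the left of both triangles, and all control signals are at least 100 units by the rule that chose the genes.

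Extracellular matrix genes were among the falls, and as RNA was taken from whole cultures, fewer cells of a kind and less RNA per cell cannot be told apart. Of the 22 fibrillar and basement membrane collagens tested, 9 fell and none rose, and the median difference of the list was -1.17, beside -0.04 over all genes. Against control 1 alone 9 were lower, and against control 2 alone 14. With prelamin A alone 7 fell and 1 rose, with a median of -0.61. The median was -1.14 with prelamin A and FTI, near that with prelamin A and ZMPSTE24. With progerin, without and with FTI, it was -0.39 and -0.53. The major interstitial collagens were not among the 9 that fell. COL1A1 read 29659 units with prelamin A and ZMPSTE24, against 39093 and 29878 on the controls, and COL1A2 43456, against 52329 and 48241. COL3A1 came close to the threshold with 18980 units, against 35289 and 38721. The members that fell were COL11A1, COL5A1, COL5A2 and COL5A3, which join and regulate the major fibrils, COL4A1, COL4A2, COL8A1 and COL15A1 of basement membranes and vessel walls, and the dim COL10A1. COL5A1 read 3100 units with prelamin A and ZMPSTE24 and 5751 with prelamin A alone, against 13642 and 17967 (-2.33, SE 0.36), and COL5A2 read 4572 and 6286 units on these arrays, against 18737 and 21452.

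COL4A1 and COL4A2 encode the 2 chains of the type IV collagen found in nearly all basement membranes and lie head to head on chromosome 13 (110148963 to 110307157 and 110307284 to 110513209). COL4A1 read 298 units with prelamin A and ZMPSTE24 and 693 with prelamin A alone, against 3724 and 3459 on the controls (-3.52, SE 0.32, limma adjusted p = 0.140). COL4A2 read 715 and 2241 units on these arrays, against 4297 and 4453 (-2.59, SE 0.32, adjusted p = 0.173). Both had their lowest signal of the 7 arrays with prelamin A and ZMPSTE24, and the controls were close to each other. With prelamin A and FTI, COL4A1 was nearly as low, at 341 units, and COL4A2 read 1279. The stretch of promoter they share is shown because both genes fell: it holds the letters CCAAT, in capitals, once, and appears as ATTGG when read on the COL4A1 strand (RefSeq, GRCh38.p14, chr13:110307154-110307208, minus strand for COL4A1 and plus strand for COL4A2).
COL4A1: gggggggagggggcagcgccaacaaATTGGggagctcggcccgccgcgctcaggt
COL4A2: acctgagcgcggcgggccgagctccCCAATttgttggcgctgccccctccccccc
CCAAT on either strand occurred in 36.4% of all 300-base promoter windows searched, 30.7% of those of genes that rose and 30.5% of those of genes that fell, so these letters are common.

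The enzymes that fold, modify and trim collagen followed the same direction, with 8 of 23 lower, none higher and a median of -0.70 (8 lower against control 1 alone and 12 against control 2 alone). With prelamin A alone 8 fell and none rose, with a median of -0.99. ADAMTS2, which removes the N-terminal propeptide, read 661 units with prelamin A and ZMPSTE24 and 1440 with prelamin A alone, against 3608 and 3588 on the controls. Its 2 other probe sets did not meet the same rule. SERPINH1, the collagen chaperone HSP47, read 3966 units, against 12642 and 20662, and P3H1, a prolyl 3-hydroxylase, 1084, against 3535 and 3985. PCOLCE and BMP1, which act on the C-terminal propeptide, were at 3921 units against 10823 and 15246, and at 337 against 846 and 1285. The cross-linking enzyme LOX was not called, with 29180 units against 35789 and 36131.

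Among the 16 elastic fibre genes, 7 fell and 1 rose, with a median of -0.80, and with prelamin A alone 1 fell and 1 rose, with a median of -0.78. Against control 1 alone 7 were lower and against control 2 alone 10. ELN, the gene of tropoelastin, read 32.8 units with prelamin A and ZMPSTE24 and 843 with prelamin A alone, against 215 and 534 on the controls. It was over 2-fold below all other 6 arrays. EFEMP1 (fibulin 3) read 461 units with prelamin A and ZMPSTE24 and 255 with prelamin A alone, against 5882 and 3705. LTBP1 and LTBP2, which hold latent TGF-beta in the matrix or bind fibrillin, read 2243 units against 6492 and 7106, and 2993 against 8871 and 13655. FBLN2 was the member that rose, with 1881 units, against 437 and 543. FBN1, the gene of fibrillin 1, was not called, at 19735 units against 31146 and 24140.

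Small leucine-rich proteoglycans moved in both directions, with 2 of 11 higher and 3 lower. OMD and ASPN, both collagen-binding proteins, read 33.6 units against 459 and 458, and 248 against 1966 and 1862. BGN (biglycan) read 502 units with prelamin A and ZMPSTE24 and 1739 with prelamin A alone, against 2608 and 7117, over 2-fold below all other 6 arrays. PRELP and FMOD rose, to 5034 units against 1417 and 614, and to 4479 against 1582 and 988. Decorin, the most abundant member in skin, read 46999 units (DCN), against 41217 and 32028. Of 35 integrins and adhesive glycoproteins, 2 rose and 4 fell, beside 3.99% and 2.66% of all genes. POSTN (periostin) fell, with 917 units with prelamin A and ZMPSTE24 and 4600 with prelamin A alone, against 10122 and 23772. TNC (tenascin C) fell too, with 2925 units against 9116 and 15536. Fibronectin (FN1) read 39627 units, against 42988 and 35701.

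Of the 25 metalloproteinases and inhibitors, 2 rose and 4 fell, beside 3.99% and 2.66% of all genes. With prelamin A alone 7 rose and 1 fell, beside 5.31% and 3.16%. MMP10 (stromelysin 2) read 1.94 units with prelamin A and ZMPSTE24 and 3024 with prelamin A alone, against 74.8 and 249 on the controls, and was over 2-fold below all other 6 arrays. It was also below both controls with prelamin A and FTI (33.8) and with progerin, without and with FTI (29.7 and 39.2). MMP3 (stromelysin 1) lay between the controls, at 1166 units with prelamin A and ZMPSTE24 and 23076 with prelamin A alone, against 179 and 2773. ADAMTS5, an aggrecanase, rose, with 14772 units against 5083 and 2663. ACAN, the gene of aggrecan, fell, with 244 units with prelamin A and ZMPSTE24 and 1800 with prelamin A alone, against 1642 and 1467. These are RNA readings, and a link between them was not tested.

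**Figure D4:**
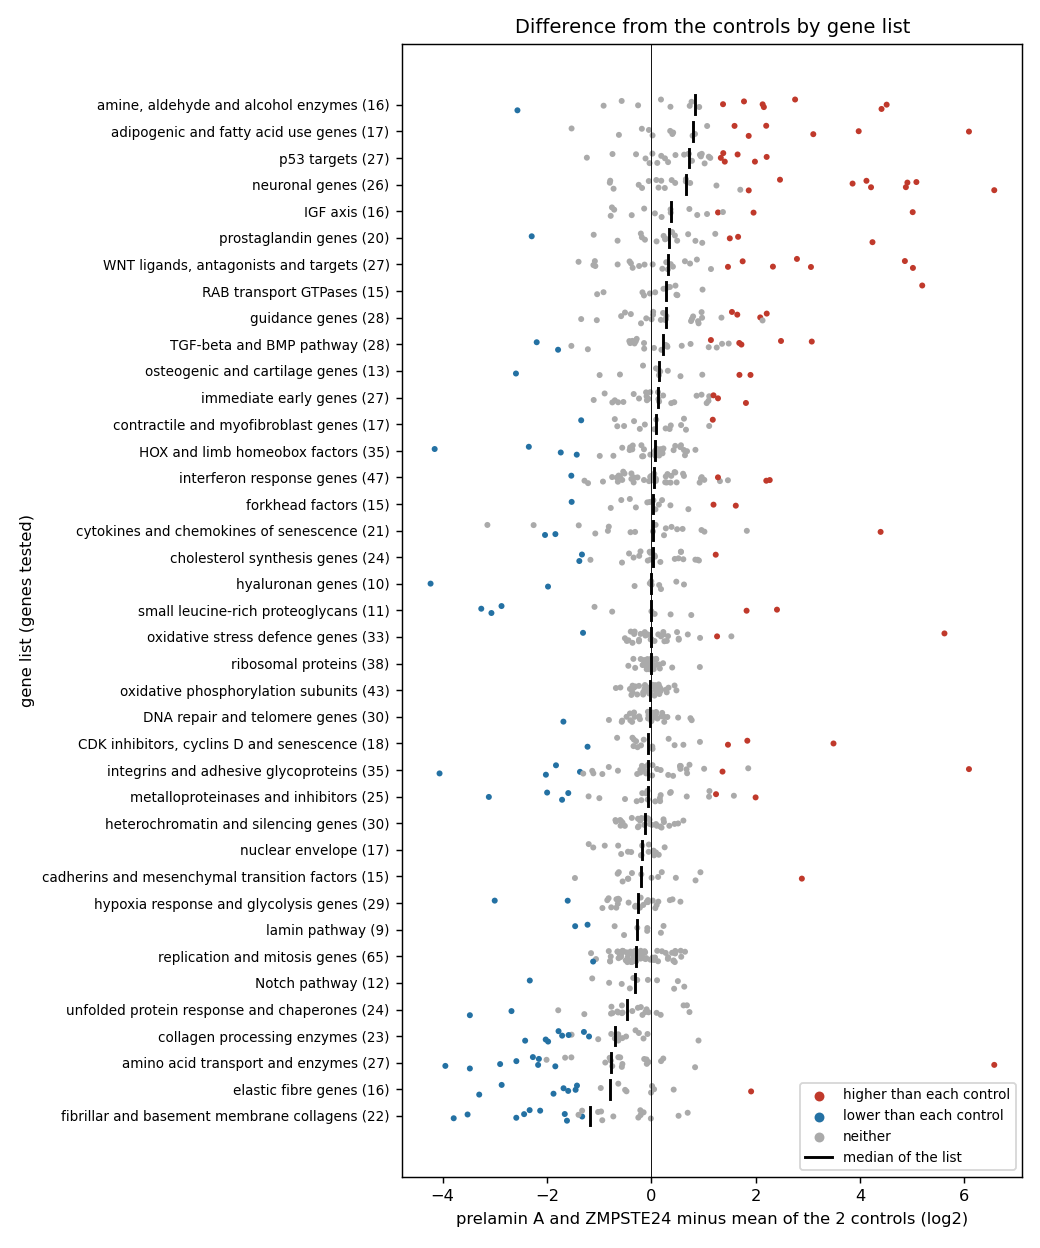
Difference of the prelamin A and ZMPSTE24 array from the mean of the 2 controls on the log2(signal + 16) scale (horizontal axis) for each gene tested in 39 gene lists (rows, ordered by median, with the number tested in brackets). Red and blue points are genes higher or lower than each control, and the black bar is the median, which runs between 0.85 for amine, aldehyde and alcohol enzymes and -1.17 for collagens.

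Genes of amino acid supply formed the next group of falls. These enzymes make serine, glycine, proline and asparagine, and many of them are known targets of ATF4, the transcription factor that responds to amino acid shortage. Of 27 genes in the list 8 fell and 1 rose (SLC7A14, described above), with a median of -0.77, and with prelamin A alone 10 fell and 2 rose, with a median of -1.11. The controls differed here too, since 10 of the 27 genes were over 2-fold higher on control 2 than on control 1 and the median of control 1 minus control 2 was -0.58. Against control 1 alone 8 were lower and against control 2 alone 14. PSAT1, of serine synthesis, read 567 units with prelamin A and ZMPSTE24 and 1527 with prelamin A alone, against 5514 and 14601 on the controls (-3.95, SE 0.66, limma adjusted p = 0.216). PHGDH, the enzyme at the start of that pathway, read 384 and 362 units on these arrays, against 1279 and 4428, and PYCR1, of proline synthesis, 289 and 353, against 1878 and 2709. ASNS (asparagine synthetase) read 395 and 985 units, against 2058 and 10067, so the size of its fall depends on the control (-2.34 and -4.62).

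BCAT1, the cytosolic branched-chain aminotransferase, was steadier between controls, with 1703 units with prelamin A and ZMPSTE24 and 1610 with prelamin A alone, against 7621 and 8960 (-2.27, SE 0.33). The mitochondrial folate enzymes SHMT2 and MTHFD2 read 1320 units against 3379 and 6713, and 1520 against 4459 and 10632. Outside the list, CBS, of transsulfuration, read 43.3 units, against 500 and 2032. A near-identical copy of CBS is annotated in this assembly, so its probes may not tell the copies apart. ATF4 itself was not called, at 8679 units against 10858 and 16719. The ATF4-linked stress genes in other lists, TRIB3 and DDIT4, fell to 238 units against 566 and 4523, and to 524 against 1486 and 12424, both with control 2 far above control 1.

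The promoters of ASNS and BCAT1 are shown because both genes fell and both windows hold TGATGNAA, in capitals, the letters of the composite C/EBP and ATF element (RefSeq, GRCh38.p14, minus strand, chr7:97872444-97872501 and chr12:24949117-24949174).
ASNS: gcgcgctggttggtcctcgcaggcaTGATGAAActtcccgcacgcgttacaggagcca
BCAT1: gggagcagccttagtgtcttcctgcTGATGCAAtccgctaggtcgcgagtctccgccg
On either strand, TGATGNAA was found in 1.81% of the 10352 promoter windows of 300 bases (250 before and 50 after the start site), in 1.66% of those of genes that rose and in 3.21% of those of genes that fell. In the amino acid list 6 of 22 windows held it (27.3%), and of the 6 lower members with a window 2 did. The other 4 genes with the letters, SLC1A3, SLC38A1, SLC3A2 and SLC7A1, were not called. SLC7A1, for example, read 3909 units, against 4909 and 6716. The letters were therefore present in called and uncalled genes of this list.

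Of 27 WNT pathway genes 7 rose and none fell, and with prelamin A alone 6 rose and 2 fell. Against control 1 alone 7 were higher and 2 lower, and against control 2 alone 11 were higher and 2 lower. Besides SFRP1, the secreted WNT binders SFRP2 and SFRP4 read 2547 units with prelamin A and ZMPSTE24 and 9652 with prelamin A alone, against 277 and 305, and 1229 and 3091 units, against 184 and 290. DKK2, which blocks WNT co-receptors, read 1538 and 478 units, against 143 and 300 (2141 and 2466 with progerin, without and with FTI). RSPO3, a secreted enhancer of WNT signalling, read 2951 and 2214 units, against 105 and 69.8. CCND1, the cyclin D1 gene and a known WNT target, read 10947 units, against 3372 and 4603. The group therefore held secreted inhibitors together with an enhancer, and no WNT ligand, since WNT5A read 5127 units against 9764 and 12554, past 2-fold against control 2 only.

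Of 28 TGF-beta and BMP genes, 5 rose and 2 fell, and with prelamin A alone 8 rose and none fell. Against control 2 alone 7 were higher and 6 lower. ID1 and ID3, inhibitors of bHLH factors and standard BMP targets, lay on opposite sides of the controls with prelamin A and ZMPSTE24 and with prelamin A alone. ID1 read 168 units with prelamin A and ZMPSTE24 and 14766 with prelamin A alone, against 430 and 888 on the controls. ID3 read 348 and 12826 units, against 1186 and 2294. Both were about as low on the progerin arrays, which were given no ZMPSTE24, with 171 and 182 units (ID1) and 219 and 269 units (ID3) without and with FTI. With prelamin A and FTI, ID1 read 11807 units and ID3 8607, above both controls. GDF5, a BMP-family ligand, read 1102 units with prelamin A and ZMPSTE24 and 245 with prelamin A alone, against 125 and 109. The BMP antagonist NOG read 412 and 1225 units on these arrays, against 63.4 and 57.4. With progerin, without and with FTI, GDF5 read 842 and 855 units and NOG 157 and 181. TGFBR3 (betaglycan) rose, with 11816 units against 5683 and 2222, but by only 1.05 over control 1.

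Among forkhead factors, 2 of 15 rose and 1 fell, beside 3.99% and 2.66% of all genes. FOXQ1, the gene at the centre of the study, read 969 units with prelamin A and ZMPSTE24 and 7676 with prelamin A alone, against 205 and 449 on the controls, which makes it higher than each control by 2.16 and 1.08 (1.62 on average, SE 0.54, limma adjusted p = 0.468). With prelamin A and FTI, FOXQ1 read 1225 units, and with progerin, without and with FTI, 1401 and 773. Its signal with prelamin A alone was thus the highest of the 7 arrays. FOXP1 fell, with 1623 units against 4418 and 5003, and 5 of its 6 other probe sets met the same rule. Of 35 HOX and limb homeobox factors 4 fell and none rose, with a median of 0.08: LHX9, IRX3, PRRX2 and HOXD1. PRRX2 read 505 units with prelamin A and ZMPSTE24 and 2848 with prelamin A alone, against 1278 and 2309, and was over 2-fold below all other 6 arrays.

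Growth-control genes gave a mixed picture. Of 27 p53 targets 6 rose and none fell, with a median of 0.72, and with prelamin A alone 9 rose and none fell, with a median of 0.63. Against control 1 alone 10 were higher, and against control 2 alone 7 were higher and 2 lower. SPATA18, a mitochondrial quality-control gene, read 2219 units, against 697 and 690, RRM2B, the p53-inducible ribonucleotide reductase subunit, 2198, against 909 and 766, and ZMAT3 7196, against 3018 and 2682. The 2 best-known members missed the rule through control 2, with CDKN1A (p21) at 8859 units against 3789 and 5658 and MDM2 at 1349 against 514 and 744. CCND2, the cyclin D2 gene, rose, with 2206 units with prelamin A and ZMPSTE24 and 1155 with prelamin A alone, against 228 and 144. Of 65 replication and mitosis genes none rose and 1 fell (MYBL2), beside 3.99% and 2.66% of all genes. The median of the list was -0.30, while that of control 1 minus control 2 was 0.54. The controls were thus farther apart than the array was from their mean. MKI67, the proliferation marker, read 295 units, against 556 and 362. TERT, the telomerase reverse transcriptase, was among the 20 largest falls at 11.8 units against 210 and 591. It read 44.1 units on the prelamin A array and no more than 59.7 on the other 3. No other TERT probe set was kept and detection calls were not used, so these readings do not establish TERT expression in control cells.

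Interferon response genes were set apart by the gap between the controls, with 19 of 47 over 2-fold higher on control 1 than on control 2. With prelamin A alone none of the 47 rose and 9 fell (median -0.83). With prelamin A and ZMPSTE24, 3 rose and 1 fell (median 0.06), beside 3.99% and 2.66% of all genes. Against control 1 alone 3 were higher and 4 lower (median -0.36), and against control 2 alone 15 were higher and 2 lower (median 0.47). MX1, an antiviral GTPase, read 1298 units with prelamin A and ZMPSTE24 and 386 with prelamin A alone, against 2415 and 409 on the controls, and ISG15, a ubiquitin-like modifier, read 3867 and 1922 units, against 5786 and 1710. IFI27 read 544 units with prelamin A and ZMPSTE24 and 9.36 with prelamin A alone, against 180 and 59.3, its highest signal of the 7 arrays. Of 21 cytokines and chemokines of senescence 1 rose and 2 fell, beside the same shares of all genes, while against control 2 alone 10 were lower. CCL26 (eotaxin 3), which recruits eosinophils, read 2530 units with prelamin A and ZMPSTE24 and 545 with prelamin A alone, against 127 and 86.5 (4.40, SE 0.37, limma adjusted p = 0.140). IL6 read 2213 and 1312 units, against 10434 and 7979, and PTGS2, the inducible cyclooxygenase, 1424 and 1940, against 6043 and 8181. With progerin, without and with FTI, CCL26 read 1150 and 1138 units, IL6 1351 and 1763 and PTGS2 645 and 561.

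Metabolic genes held several of the highest rises. Of 17 adipogenic and fatty acid use genes 6 rose and none fell (median 0.79), beside 5 and 1 with prelamin A alone (median 0.41). FABP3, a fatty acid binding protein, read 639 units, against 102 and 33.2, and PDK4, which shifts fuel use towards fat, 199, against 27.7 and 34.1. LEP (leptin) read 5266 units with prelamin A and ZMPSTE24 and 202 with prelamin A alone, against 1099 and 85.0, and its highest signal of all 7 arrays came with a 1.45 SE because the controls lay far apart (limma adjusted p = 0.499). Of 16 amine, aldehyde and alcohol enzymes 7 rose and 1 fell (median 0.85), beside 8 and 1 with prelamin A alone (median 1.15). The median with progerin was 1.24. ADH1B, an alcohol dehydrogenase, read 3776 units with prelamin A and ZMPSTE24 and 276 with prelamin A alone, against 213 and 122 (4.41, SE 0.44, limma adjusted p = 0.140). AOX1, aldehyde oxidase, read 4947 and 2151 units, against 938 and 549. AKR1C1 and AKR1C2, near-identical steroid and prostaglandin reductases whose probes may read each other, were at 23284 units against 10078 and 6652, and at 21181 against 8638 and 5150. IGFBP5, a binding protein of insulin-like growth factors, read 15943 units with prelamin A and ZMPSTE24 and 3441 with prelamin A alone, against 1367 and 161. All 5 of its other probe sets met the rule. With progerin, without and with FTI, IGFBP5 read 8320 and 7243 units, ADH1B 2857 and 1613, AOX1 2905 and 2985 and LEP 1497 and 1572.

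Genes best known from neurons rose in 9 of 26 and fell in none, with a median of 0.66, and with prelamin A alone 13 rose and 2 fell, with a median of 1.08. The list was drawn up with earlier results of these data known and holds several of the largest rises. STMN2, a tubulin-binding protein of growing axons, read 20772 units with prelamin A and ZMPSTE24 and 29845 with prelamin A alone, against 280 and 1668 on the controls. BEX1, an adaptor protein, read 2259 and 3038 units, against 127 and 24.2, SNAP25, a vesicle fusion protein, 268 and 579, against 2.42 and 4.74, and INA, the neurofilament protein alpha-internexin, 442 and 303, against 12.8 and 5.20. The 2 other probe sets of SNAP25 and the 1 other of NEFL, a neurofilament gene that rose, did not meet the same rule. With progerin, without and with FTI, SNAP25 read 9.71 and 73.7 units. INA and NEFL are also expressed in the embryonic kidney cells commonly used to make lentivirus. Of 7 such markers 6 were tested and 2 rose (INA and NEFL), and the 6 summed to 954 units, against 242 and 163, while PAX2 read 106 units against 71.1 and 58.7. Their part in the rise of neuronal genes was not tested. Of the 7 keratinocyte markers 2 passed the filter and neither was called, with a summed signal of 16432 units, against 19002 and 12722 on the controls. They were KRT10, a keratin, at 6516 units against 10671 and 7555, and DSP, the desmosome protein desmoplakin, at 9916 against 8332 and 5167, while the defining markers KRT5 and KRT14 did not reach 100 units on any array. Of the 6 melanocyte markers only MITF passed the filter, at 177 units against 109 and 103, and it was not called. PMEL did not reach 100 units on any array. Of the endothelial markers TEK rose, with 280 units against 23.5 and 2.19, and of the leukocyte markers CD14 rose, with 575 against 87.2 and 55.3, while CDH5 and PTPRC did not reach 100 units on any array.

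Several lists held no called gene, but with 6.65% of all genes called, few calls would be expected in lists of this size. None of 38 ribosomal protein genes, 43 oxidative phosphorylation subunits or 30 heterochromatin and silencing genes was called, and the medians were -0.01, -0.02 and -0.13. CBX5, the gene of heterochromatin protein 1 alpha, read 3539 units with prelamin A and ZMPSTE24 and 2537 with prelamin A alone, against 4108 and 4082. Among genes with a mean signal of 100 to 300 units 5.38% were higher, 3.22% were lower and 13% differed over 2-fold between the controls, and over 3000 units the shares were 2.48%, 2.00% and 3.29%. Genes with a mean under 100 units passed the filter only through an array above that mean, so their shares are not compared.

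**Figure D5:**
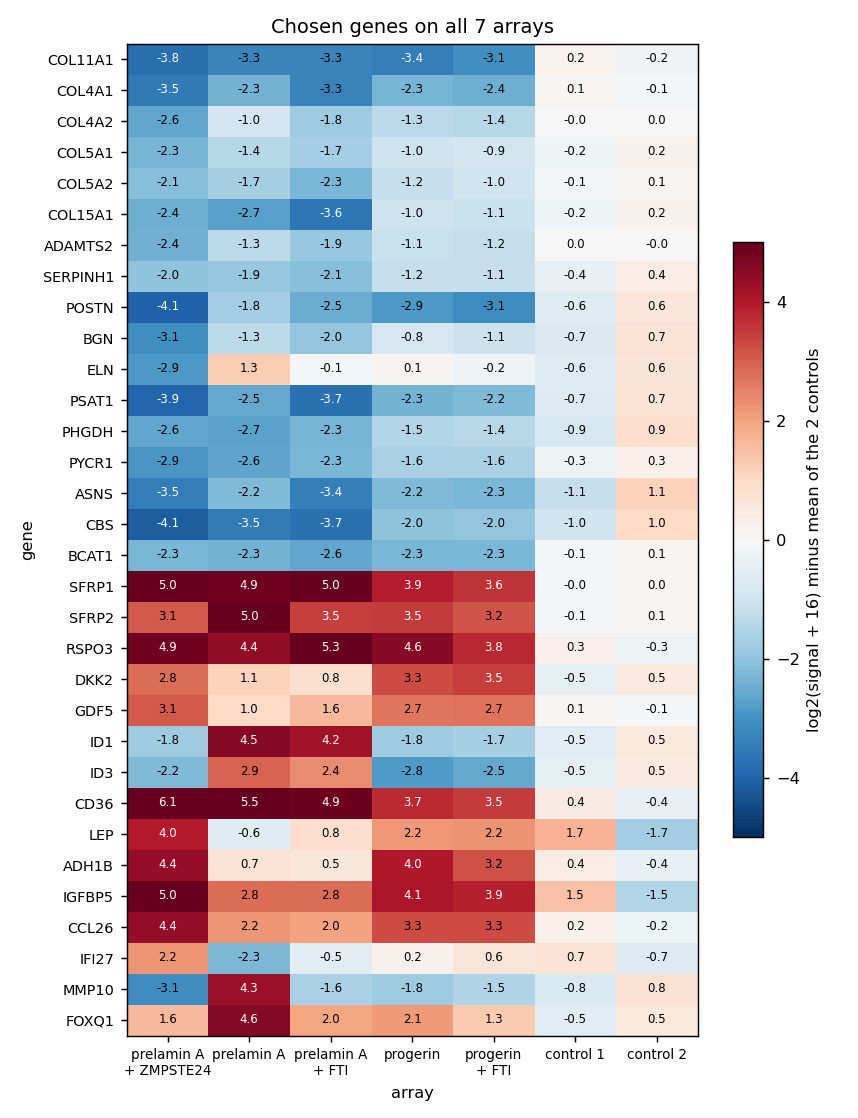
Log2(signal + 16) minus the mean of the 2 controls for 32 genes described in the text (rows) on all 7 arrays (columns, with the controls last). Red is higher and blue lower than the control mean, and ID1, ID3, ELN, LEP, IFI27 and MMP10 are the rows in which the prelamin A and ZMPSTE24 array departs most from the prelamin A array.

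The prelamin A and ZMPSTE24 array was the highest of all 7 at 225 of the 508 genes that rose and the lowest at 219 of the 338 that fell. These genes were chosen by their distance from the controls on this same array, which favours such counts. No such count was made for genes called on another array. Over all genes tested, the prelamin A and ZMPSTE24 array stood over 2-fold above all other 6 arrays at 15 and over 2-fold below them at 49. For comparison, the same counts were 66 and 40 for the prelamin A array, 19 and 34 for prelamin A with FTI, 25 and 64 for control 1 and 74 and 146 for control 2, while they were lower on the progerin array (5 and 13) and on the array of progerin with FTI (0 and 33). The 15 high genes, named here after their values were seen, included CCL26, LEP, IFI27, RSAD2, SLC5A3, VEPH1 and FGF18. SLC5A3, the myo-inositol transporter, read 7981 units with prelamin A and ZMPSTE24 and 2963 with prelamin A alone, against 1793 and 1071. VEPH1, a pleckstrin homology domain protein, read 2746 and 176 units, against 437 and 229. Most of the 49 low genes were dim on every array, and those with brighter signals included BGN, PRRX2, CRIP1, ELN and DEPP1. DEPP1, a FOXO target, read 56.5 units with prelamin A and ZMPSTE24 and 675 with prelamin A alone, against 395 and 246.

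Other probe sets of the same genes gave a further reading of the calls. Of the 846 genes 345 had at least 1 other probe set bright enough to be kept, and at 215 of them at least 1 met the same rule. Over the 558 such probe sets 306 met the same rule, 1 met the opposite one and 527 had a difference of the same sign. By position, genes that rose made up 9.04% of those tested on chromosome 18 (17 of 188). The share was 8.30% on chromosome 8 (38 of 458) and 8.09% on chromosome 21 (11 of 136). It was 1.5% on chromosome 19 (13 of 864), where 3.70% of genes fell (32). Over all genes 3.99% rose and 2.66% fell. With prelamin A alone the 4 shares of higher genes were 9.57%, 8.52%, 8.82% and 1.39%, from the same controls. These chromosomes had the highest and lowest shares and were named after their values were seen. The median of mean signals was 343 units on chromosome 19 and 871 on chromosome 18. The controls were over 2-fold apart at 12.3% and 8.51% of their genes. The part of signal in these shares was not tested. Just inside the rule were EHHADH and CNDP2 among the higher genes and CDC42EP5 among the lower, whose smaller difference exceeded 1 by under 0.01, and just outside it were HTR6 with 0.997 and GRIK5 with -0.996.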

How the data were processed

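The authors deposited 1 table of intensity values, the MAS 5.0 signal of each probe set on 7 Affymetrix HG-U133 Plus 2.0 arrays. MAS 5.0 corrects background, summarises probe pairs and scales each array, which leaves dim values noisy. Detection calls were not used. The study's own S-score test needs probe-level data and was not run. Signals on so few arrays give limited precision.

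Of 54675 probe sets, 62 were array controls, 41091 had 1 gene in the platform annotation, 1801 had several and 11721 had none. Gene IDs matched RefSeq (GRCh38.p14) for 41037, which gave symbols, coordinates and promoter windows. A probe set of 1 gene was kept if any array reached a signal of 100, and each gene took its brightest probe set by mean. After 4 genes were left out by the rule on sex-linked genes, 12722 remained.

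Calls required log2(signal + 16) to differ by over 1 from each control. Limma 3.58.1 in R 4.3.3 was fitted to 6 conditions with 1 residual and 3.50 prior degrees of freedom, Benjamini-Hochberg adjusted over all genes, and checked on simulated data. SE values are from this fit. Python 3.11.15 with pandas 2.3.3 made the other values.

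Named genes were the 20 largest rises and falls by the smaller difference from the controls (with at least 100 units on the higher side), up to 6 called members of each gene list, all lamin pathway and nuclear envelope genes, and FOXQ1. Further list members were named after their values were seen. The genes and the 46 lists, 7 of them cell type markers, were chosen with earlier results of these data known. The alternatives tried included median centring, quantile normalization, pseudocounts (1 and 64), other filters, every probe set, other thresholds, an intensity trend, the 3 arrays alone and leaving out each control.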

Additional observations from a re-analysis of the deposited data

Results flagged for a closer look

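At 6 genes the prelamin A and ZMPSTE24 array lay over 2-fold on one side of both controls and the prelamin A array over 2-fold on the other side. The comparisons share the same 2 controls, each rests on 1 array, and the difference between them was not tested. Lower with prelamin A and ZMPSTE24 and higher with prelamin A alone were ID1 (log2 difference from the control mean -1.79 with prelamin A and ZMPSTE24, 4.54 with prelamin A alone), ID3 (-2.20 and 2.95), MMP10 (-3.11 and 4.29) and TMEM200C (-1.33 and 1.20). Higher with prelamin A and ZMPSTE24 and lower with prelamin A alone were IFI27 (2.21 and -2.26) and PPL (1.76 and -1.37). TMEM200C was dim, with 6.70 units with prelamin A and ZMPSTE24 and 116 with prelamin A alone, against 38.2 and 44.4 on the controls. PPL, a plakin of cell junctions, read 1276 units with prelamin A and ZMPSTE24 and 131 with prelamin A alone, against 438 and 302. The progerin arrays, given no ZMPSTE24, lay near the prelamin A and ZMPSTE24 array for ID1 and ID3 (-1.76 and -2.82 without FTI, -1.68 and -2.55 with FTI). On these arrays PPL read 1548 units without FTI and 844 with it, above both controls, and IFI27 read 124 and 167, between the controls. MMP10 read 29.7 and 39.2 units there and 33.8 with prelamin A and FTI, all below both controls (74.8 and 249). Its reading of 1.94 with prelamin A and ZMPSTE24 was very dim. With prelamin A and FTI, ID1 and ID3 lay above both controls, at 11807 and 8607 units.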

How the results depend on the processing

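No paired analysis was possible because the prelamin A and ZMPSTE24 group has 1 array and shares fewer than 2 replicate numbers with the controls. The controls set the counts: leaving out 1 control at a time gave 732 to 1129 higher genes and 551 to 1021 lower genes, in each case the larger number without control 1, in place of 508 and 338. Against the mean of the controls the counts were 831 and 640. With every probe set they were 889 and 661, without a filter on dim probe sets 792 and 632, and at a fold threshold of 4 they were 132 and 55. A pseudocount of 64 left 186 lower genes. In limma, every probe set gave 1054 higher and 832 lower, no filter gave 758 lower, and an unadjusted p under 0.01 gave 273 higher and 151 lower. The number of genes at an adjusted p under 0.05 in limma was 55 with a pseudocount of 64 and 121 with an intensity trend, in place of 0. The causes of these shifts were not tested beyond the alternatives themselves. Of the 846 called genes, 807 were kept by quantile normalization, 820 by median centring and 569 by a pseudocount of 64. A mean signal of at least 100 kept 636. A pseudocount of 1 kept all 846, as it must, because a smaller pseudocount only widens each difference. A called gene lies on the same side of each control, so leaving out a control or changing the pseudocount cannot reverse its direction. Quantile normalization and median centring could, and no called gene named in the text changed direction under them. The median of interferon response genes did change direction, at 0.47 without control 1 and -0.36 without control 2. Dim signals limit the counts as well, since a mean signal of at least 100 gave 401 higher and 235 lower.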
